A study of Mus musculus with 12 samples.

Results

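The mRNA levels of 37 genes of sterol and fatty acid synthesis were examined in Tom+ and Tom- hepatocytes of oil- and CCl4-treated p16-Tom mice. The genes were chosen by name, as 21 cholesterol synthesis genes under the control of SREBP2 (the sterol members) and 16 lipogenic genes under the control of SREBP1 and ChREBP (the lipogenic members). The rule uses no measured value, although earlier results of these data were known when it was written. All 37 were found among the 54839 features of the deposited count table, and all 37 were among the 17121 genes that passed the filter on low counts.

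SREBP2 and SREBP1 are transcription factors made as precursors in the membrane of the endoplasmic reticulum. When sterols are low the precursor is carried to the Golgi and cut, and the released part switches on the genes of cholesterol synthesis, mainly through SREBP2. SREBP1 acts mainly on fatty acid synthesis and responds to insulin and to oxysterols through LXR, and ChREBP, encoded by Mlxipl, is activated by sugar metabolites and drives many of the same lipogenic genes. In the liver both arms supply membranes, bile acids and lipoproteins, and the lipogenic arm turns excess sugar into stored triglyceride.

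The RNA-seq data held 12 libraries in 4 groups of 3: Tom- and Tom+ hepatocytes from oil-treated mice, and Tom- and Tom+ hepatocytes from CCl4-treated mice. All mice were male p16-Tom animals, in which a tamoxifen-dependent Cre recombinase driven by the p16Ink4a locus switches on the red protein tdTomato, so that Tom+ marks cells with p16Ink4a expression at the time of tamoxifen (80 mg/kg). CCl4, a toxic solvent that pericentral hepatocytes turn into a damaging radical, was injected at 1 mL/kg every 3 days over 4 weeks, and the oil groups received corn oil, its vehicle. The reporter follows p16Ink4a activity in any cell type, live cells were sorted by their red fluorescence, and the age of the mice is not given in the sources used here. The labels do not say whether the 3 libraries of a group came from separate mice, so that the p-values measure the spread between these libraries.

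Total counts per library ranged from 37568584 to 75331424. The tdTomato reporter went against the label of 2 oil libraries, Tom- replicate 1 at 1793 CPM (TMM-normalised counts scaled to library size) and Tom+ replicate 2 at 135 CPM, whereas the other Tom- libraries had 120 to 263 CPM and the other Tom+ libraries 1225 to 1546 CPM. The labels were kept, and results that rest on the oil libraries are also given without these 2. A gene was called a DEG when its adjusted p-value was under 0.05 and its log2 fold change exceeded 0.75 in size.

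To show the sequences in front of the genes that the results turn on, the 250 bases upstream of the RefSeq start (GRCm38, the same build as mm10) were searched on both strands for a sterol regulatory element core (TCACNCCAC), a CCAAT box (CCAAT), an E-box (CACGTG) and a GC box (GGGCGG). An entry was found for 17 of the 21 sterol and 12 of the 16 lipogenic members. For members with several starts, the start nearest the 5' end of the gene in the deposited table was used. The comparison windows used the first start listed for each gene, so that the shares below rest on different choices of start. A CCAAT box stood in 15 of the 17 sterol windows (88.2%) and in 7 of the 12 lipogenic windows (58.3%), against 36.5% of the 11209 windows of tested genes and 34.5% of all 27025 windows. A GC box stood in 16 of 17 sterol windows (94.1%) and 5 of 12 lipogenic windows (41.7%), against 55.9% of the windows of tested genes. The sterol element core occurred once among the members, in Hmgcs1, and in 1.06% of the windows of tested genes. An E-box was found in 3 sterol and 2 lipogenic windows, against 8.18%. These are matches of letters, and no binding was measured. The windows of Pnpla3 and Elovl6 are printed because both genes were DEGs of the CCl4 contrast in both fractions, those of Ebp, Insig1 and Pmvk because they had the smallest adjusted p-values of the sterol members with an entry, and those of Hmgcs1 and Mlxipl were added after the values were seen, for the sterol element and for the difference between Tom+ and Tom-. Scd1 and Scd2 met the same rule as Pnpla3. Capitals mark the motif matches, none of which overlap, and bases inside the gene as the deposited table places it were left out (49 for Insig1 and 31 for Elovl6). The windows lie at chrX:8193513-8193762 (minus strand) for Ebp, chr5:28071162-28071362 (plus strand) for Insig1, chr3:89454291-89454540 (plus strand) for Pmvk, chr15:84167566-84167815 (plus strand) for Pnpla3, chr3:129532136-129532354 (plus strand) for Elovl6, chr13:119690101-119690350 (plus strand) for Hmgcs1 and chr5:135089640-135089889 (plus strand) for Mlxipl.
Ebp: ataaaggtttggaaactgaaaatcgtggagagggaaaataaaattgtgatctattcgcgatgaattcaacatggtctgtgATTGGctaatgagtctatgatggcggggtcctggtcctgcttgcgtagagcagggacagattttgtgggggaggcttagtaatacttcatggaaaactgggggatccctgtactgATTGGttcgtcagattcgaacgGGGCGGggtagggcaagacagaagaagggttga
Insig1: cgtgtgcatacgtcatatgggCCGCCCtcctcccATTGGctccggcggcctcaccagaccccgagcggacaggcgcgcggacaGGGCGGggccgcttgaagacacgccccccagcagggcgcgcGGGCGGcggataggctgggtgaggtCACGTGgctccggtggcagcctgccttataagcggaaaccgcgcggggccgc
Pmvk: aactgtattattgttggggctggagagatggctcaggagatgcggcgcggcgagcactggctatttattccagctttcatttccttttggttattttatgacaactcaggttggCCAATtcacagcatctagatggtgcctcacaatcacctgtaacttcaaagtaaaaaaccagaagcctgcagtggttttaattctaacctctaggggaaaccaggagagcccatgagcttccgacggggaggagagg
Pnpla3: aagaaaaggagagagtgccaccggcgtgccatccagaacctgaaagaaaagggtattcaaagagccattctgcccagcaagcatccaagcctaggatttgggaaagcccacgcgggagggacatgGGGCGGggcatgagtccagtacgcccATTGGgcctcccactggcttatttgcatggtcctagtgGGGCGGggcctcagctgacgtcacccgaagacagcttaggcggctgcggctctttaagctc
Elovl6: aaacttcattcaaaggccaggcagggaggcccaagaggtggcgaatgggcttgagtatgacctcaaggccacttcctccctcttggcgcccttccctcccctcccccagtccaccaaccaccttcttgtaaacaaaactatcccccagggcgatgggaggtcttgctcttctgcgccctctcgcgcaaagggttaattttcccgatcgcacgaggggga
Hmgcs1: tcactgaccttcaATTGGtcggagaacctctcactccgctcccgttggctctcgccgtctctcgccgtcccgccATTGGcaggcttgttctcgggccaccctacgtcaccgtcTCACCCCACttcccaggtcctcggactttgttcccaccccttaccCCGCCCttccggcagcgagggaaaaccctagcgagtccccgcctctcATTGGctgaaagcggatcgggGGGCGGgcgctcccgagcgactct
Mlxipl: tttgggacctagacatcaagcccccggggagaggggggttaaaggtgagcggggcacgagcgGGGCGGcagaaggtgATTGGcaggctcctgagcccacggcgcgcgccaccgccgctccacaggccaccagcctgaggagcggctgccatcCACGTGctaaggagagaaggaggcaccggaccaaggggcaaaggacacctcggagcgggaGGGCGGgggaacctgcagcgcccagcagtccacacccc

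Levels per length were compared as TPM (counts divided by gene length and scaled to the same total in each library). Averaged over the 12 libraries, the sterol members ranged from 13.8 TPM for Lss, which closes the sterol ring, to 243 TPM for Ebp, which moves a double bond in the ring, followed closely by Insig1 (240.3 TPM), the membrane protein that holds the SREBP precursors back. The lipogenic members spanned from 2.38 TPM for Scd2 to 3853 TPM for Scd1, both stearoyl-CoA desaturases, with Dgat2, the enzyme of the last step of triglyceride synthesis, next at 411 TPM. The summed level of the 21 sterol members was 1748 ± 282 TPM in Tom- oil, 1784 ± 192 in Tom+ oil, 1630 ± 139 in Tom- CCl4 and 2056 ± 197 in Tom+ CCl4 (SD, n = 3 in each). The Tom+ CCl4 sums (1861 to 2256 TPM) were above the Tom- CCl4 sums (1522 to 1787 TPM), and all other groups overlapped each other and both of these. The summed level of the 16 lipogenic members, to which Scd1 added more than any other, was 3870 ± 209 TPM in Tom- oil and 4513 ± 997 in Tom+ oil, against 7885 ± 1831 in Tom- CCl4 and 8877 ± 1735 in Tom+ CCl4. The lowest CCl4 library (6328 TPM) stood above the highest oil library (5361 TPM). Because Scd1 alone averaged 3853 TPM, these sums depend heavily on 1 gene and do not show that the arm as a whole rose. Sums without Scd1 are not given.

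**Figure D1:**
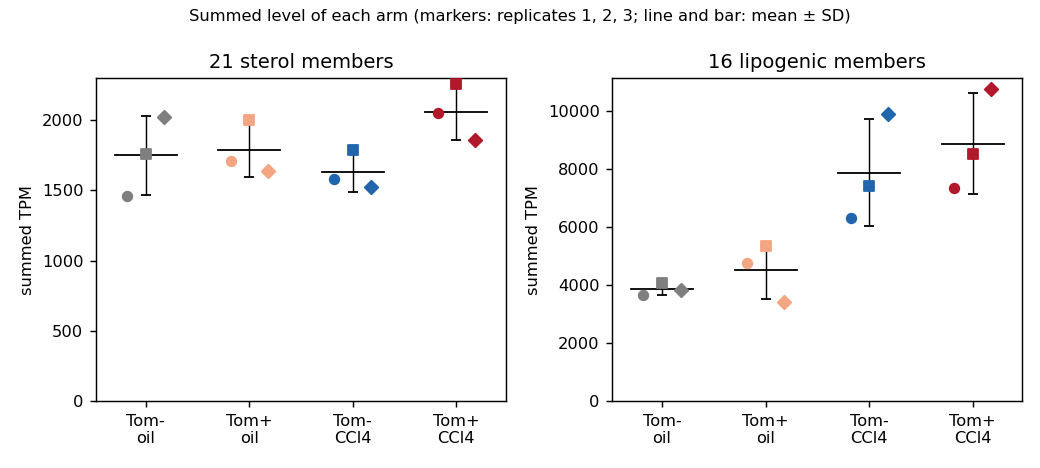
Summed TPM (linear axis from 0) of the 21 sterol members (left) and the 16 lipogenic members (right) in each library, with circles, squares and diamonds for replicates 1, 2 and 3 and the mean ± SD of each group (n = 3). The sterol sums of all groups lie between 1460 and 2256 TPM, whereas the lipogenic sums lie between 3415 and 5361 TPM in oil and between 6328 and 10763 TPM in CCl4. Scd1, at 3853 TPM on average over all libraries, is the largest part of the lipogenic sums.

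To see how CCl4 changed both arms, CCl4-treated and oil-treated libraries were compared within each fraction. In Tom- hepatocytes 7 of the 16 lipogenic members were higher in CCl4 and none was lower, and in Tom+ hepatocytes 4 were higher and none was lower. Among all genes tested, 6.33% were DEGs that rose and 1.59% DEGs that fell in Tom-, against 2.9% and 2.34% in Tom+. Of the 21 sterol members 0 were DEGs by edgeR or by DESeq2 in either fraction. The median log2 fold change of the lipogenic members was 0.60 in Tom- and 0.30 in Tom+, that of the sterol members -0.05 and 0.15, and that of all genes tested 0.00 in both. For 10 lipogenic members in Tom- and 6 in Tom+ all CCl4 libraries were above all oil libraries, and for 0 and 2 all were below, against 19.3% above and 16.8% below of all genes tested in Tom- and 14.6% each way in Tom+. Of the sterol members 2 were fully above and 1 fully below in Tom-, and 3 and 1 in Tom+. The contrasts of both fractions share no libraries, but they cannot be counted as independent. Departures from the group mean correlated between the fractions for libraries of equal replicate number (r = 0.504 to 0.707 in CCl4 and 0.348 to 0.549 in oil). A change seen in both fractions is therefore not a separate repeat of the result.

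Among Fasn, Acly and the acetyl-CoA carboxylase genes, Fasn and Acacb were DEGs that rose in Tom- hepatocytes. Fasn, the fatty acid synthase (chr11:120805846-120824547, mm10), measured 499, 541 and 537 CPM in Tom- oil and 949, 972 and 1151 CPM in Tom- CCl4, groups that did not overlap (1.95-fold, log2 0.96 ± 0.16 SE, adjusted p = 0.00201). In Tom+ hepatocytes its levels were 843, 962 and 561 CPM in oil and 1162, 1100.3 and 1279 CPM in CCl4. The fold there was smaller (log2 0.58 ± 0.16, adjusted p = 0.0343), past the p threshold but not the fold threshold, and the Tom+ oil libraries of replicates 1 and 2 were above all Tom- oil libraries. Without Tom+ oil replicate 2, the library whose reporter goes against its label, the log2 fold change of Fasn in Tom+ was 0.75 (adjusted p = 0.0173) and it became a DEG. Acacb, the acetyl-CoA carboxylase of the mitochondrial surface (chr5:114146535-114250761), rose from 64.3, 88.3 and 92.6 CPM to 133, 167 and 168 CPM in Tom- (log2 0.93 ± 0.19, adjusted p = 0.00736). Its Tom+ libraries had 107, 142 and 84.0 CPM in oil and 130.1, 163 and 167 CPM in CCl4, groups that overlapped (log2 0.47 ± 0.19, adjusted p = 0.152). Acaca, the cytosolic carboxylase, passed the p threshold alone in Tom- (log2 0.62 ± 0.17, adjusted p = 0.0241) and missed it in Tom+ (log2 0.53 ± 0.17, adjusted p = 0.0618). Acly, which supplies cytosolic acetyl-CoA, went the other way in Tom+ hepatocytes (log2 -0.46 ± 0.10, adjusted p = 0.0127), within the fold threshold, and had a log2 fold change of -0.0045 ± 0.10 in Tom-.

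Among the desaturation and elongation genes, Scd1, Scd2 and Elovl6 rose in both fractions. Scd1, the main stearoyl-CoA desaturase of the liver, measured 3732, 3808 and 2996 CPM in Tom- oil, 4518, 5544 and 2816 CPM in Tom+ oil, 8529, 10198 and 17484 CPM in Tom- CCl4 and 8696, 10155 and 16163 CPM in Tom+ CCl4. All 6 CCl4 libraries were above all 6 oil libraries, and replicate 3 was the highest in CCl4 in both fractions. The increase was 3.44-fold in Tom- (log2 1.78 ± 0.33, adjusted p = 0.00611) and 2.72-fold in Tom+ (log2 1.44 ± 0.33, adjusted p = 0.0211). Elovl6, which lengthens palmitate (chr3:129532355-129638495), had 73.2, 83.6 and 81.6 CPM in Tom- oil, 119, 142 and 67.1 CPM in Tom+ oil, 154, 215 and 277 CPM in Tom- CCl4 and 182, 258 and 276 CPM in Tom+ CCl4. These groups did not overlap either (Tom-, log2 1.44 ± 0.28, adjusted p = 0.0083; Tom+, log2 1.12 ± 0.28, adjusted p = 0.0323). The Tom+ calls of both genes were lost without Tom+ oil replicate 1 (adjusted p = 0.0755 for Scd1 and 0.0851 for Elovl6) and without Tom+ CCl4 replicate 3 (0.0788 and 0.128), and that of Elovl6 also without Tom+ CCl4 replicate 2 (0.0917). Without both oil libraries that the reporter contradicts, where 4.32% of all genes rose as DEGs in Tom- and 2.09% in Tom+, the 7 Tom- members and all 4 Tom+ members stayed DEGs and Fasn joined the latter (log2 0.76, adjusted p = 0.0236), with Scd1 and Elovl6 at log2 1.68 (adjusted p = 0.0443) and 1.36 (adjusted p = 0.0436) in Tom+. The replicate block of this contrast gives oil and CCl4 libraries of the same number a shared block. With it and without these libraries 5 members in Tom- and 3 in Tom+ were DEGs. The calls of Scd1 (adjusted p = 0.0567 in Tom- and 0.11 in Tom+) and Elovl6 (0.0681 and 0.13) were then lost in both fractions. The share of all genes in this setting is not given. With the block and all libraries 7.98% of all genes rose as DEGs in Tom- and 3.77% in Tom+.

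Scd2, a second desaturase that adult hepatocytes express little of, was low throughout. It measured 0.527, 1.36 and 1.47 CPM in Tom- oil, 2.17, 2.23 and 1.37 CPM in Tom+ oil, 7.56, 5.75 and 10.6 CPM in Tom- CCl4 and 10.2, 6.88 and 15.0 CPM in Tom+ CCl4. All CCl4 libraries were above all oil libraries, with a rise of 7.01-fold in Tom- (log2 2.81 ± 0.39, adjusted p = 0.00109) and 5.52-fold in Tom+ (log2 2.46 ± 0.37, adjusted p = 0.00204). Scd2 (chr19:44293676-44306864, mm10) lies beside its paralog Scd1 (chr19:44394451-44407709), whose mean TPM was far higher, and reads that match both could have been split between them by the counting, so that the values of Scd2 are uncertain. The other fatty acid enzymes stayed within the fold threshold in both fractions, with log2 values of 0.26 and -0.12 for Elovl5, 0.27 and 0.29 for Fads1 and 0.26 and 0.22 for Fads2 in Tom- and Tom+.

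Of the genes of triglyceride metabolism, Pnpla3, a lipid droplet protein whose mRNA is induced by feeding (chr15:84167837-84187236), had the largest fold change of all members in Tom- and the second largest, after Scd2, in Tom+. Its levels were 0.290, 0.252 and 0.572 CPM in Tom- oil, 0.664, 0.973 and 0.685 CPM in Tom+ oil, 2.86, 4.78 and 7.90 CPM in Tom- CCl4 and 1.75, 2.75 and 4.01 CPM in Tom+ CCl4. The oil values rest on 11 to 51 counts per library. Pnpla3 rose 13.8-fold in Tom- (log2 3.79 ± 0.46, adjusted p = 0.000309) and 3.64-fold in Tom+ (log2 1.86 ± 0.41, adjusted p = 0.0136), and the Tom+ call was lost without Tom+ oil replicate 1 (adjusted p = 0.0694) and without Tom+ CCl4 replicate 3 (adjusted p = 0.0605). Dgat2, one of the highest lipogenic members, had 528, 553 and 638 CPM in Tom- oil, 538, 607 and 585 CPM in Tom+ oil, 599, 597 and 415 CPM in Tom- CCl4 and 492, 475 and 405 CPM in Tom+ CCl4. It was thus lower in Tom+ CCl4 than in Tom+ oil in all libraries, but its log2 fold change of -0.33 ± 0.14 did not pass the test (adjusted p = 0.153). Gpam, which starts glycerolipid synthesis, and Thrsp, a small lipogenic regulator, had log2 values of -0.17 and -0.06 in Tom- and 0.31 and -0.34 in Tom+, none of which passed.

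Of the transcription factor genes of the arm, Mlxipl rose in Tom- hepatocytes and Srebf1 passed the test in neither fraction. Mlxipl, the gene of ChREBP (chr5:135089890-135138382), measured 195, 287 and 239 CPM in Tom- oil and 369, 629 and 566 CPM in Tom- CCl4, groups that did not overlap (2.17-fold, log2 1.12 ± 0.19, adjusted p = 0.00271). In Tom+ hepatocytes it had 235, 315 and 257 CPM in oil and 264, 299 and 270.0 CPM in CCl4. These groups overlapped, with a log2 fold change of 0.05 ± 0.19 (adjusted p = 0.912). Srebf1, the gene of SREBP1, showed 290.5, 315 and 208 CPM in Tom- oil and 493, 403 and 316 CPM in Tom- CCl4 (log2 0.58 ± 0.31, adjusted p = 0.238). Its Tom+ levels were 435, 521 and 204 CPM in oil and 352, 282 and 256 CPM in CCl4 (log2 -0.38 ± 0.31, adjusted p = 0.506). The spread between the Tom+ oil libraries of Srebf1, from 204 to 521 CPM, covered the Tom+ CCl4 libraries.

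**Figure D2:**
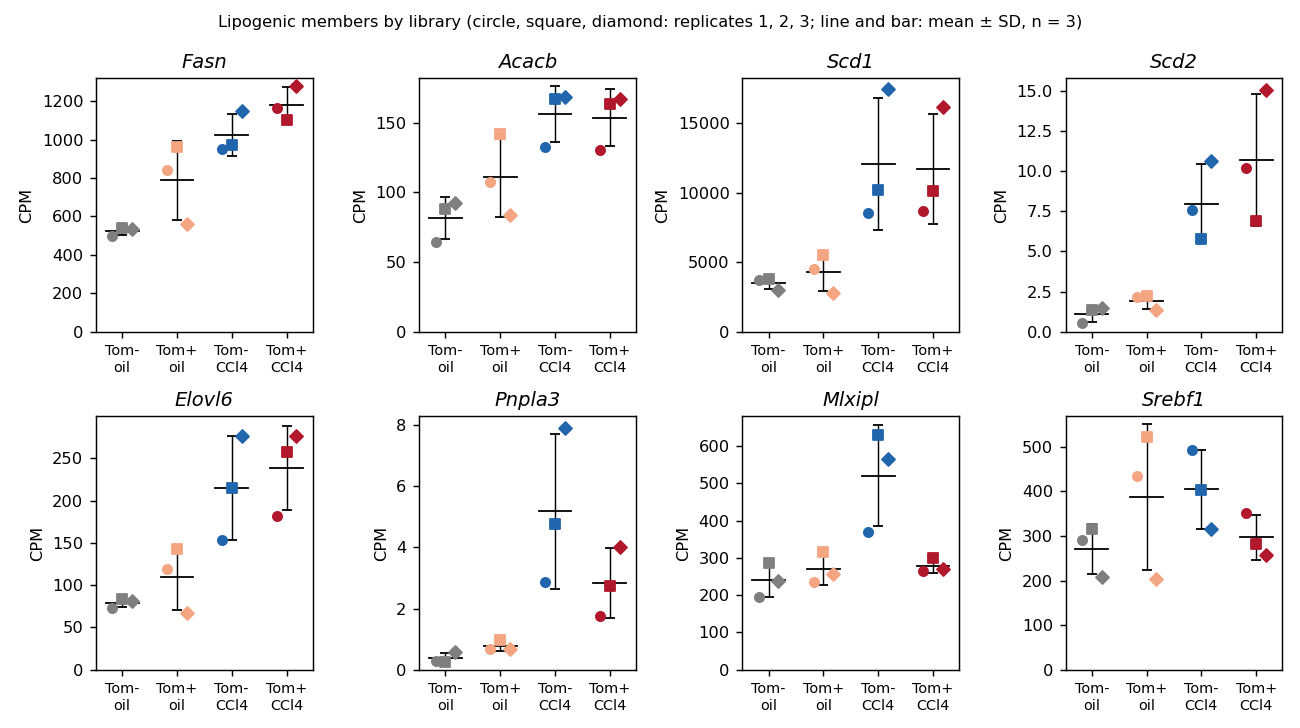
CPM (linear axes from 0) of 8 lipogenic members in each library, grouped by fraction and treatment, with circles, squares and diamonds for replicates 1, 2 and 3 and the mean ± SD of each group (n = 3). Scd1, Scd2, Elovl6 and Pnpla3 are higher in every CCl4 library than in every oil library, Mlxipl is high in Tom- CCl4 only (369 to 629 CPM), and the Tom+ oil libraries of replicates 1 and 2 lie above replicate 3 in Fasn, Acacb, Scd1, Elovl6 and Srebf1.

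When the CCl4 contrast was averaged over both fractions, 5 lipogenic members were DEGs and all were higher, Pnpla3 (log2 2.82 ± 0.31), Scd2 (2.64 ± 0.27), Scd1 (1.61 ± 0.23), Elovl6 (1.28 ± 0.20) and Fasn (0.77 ± 0.11), with adjusted p-values from 5.85e-05 to 0.00169. Among all genes tested, 6.17% were DEGs that rose in this contrast. Of the sterol members 0 were DEGs by edgeR or DESeq2, and 3 had an unadjusted p-value under 0.05, as had 35% of all genes. By the adjusted p-value alone, which 11.9% of all genes passed as higher and 10.1% as lower, 10 members passed, with Acaca, Acacb, Fads1 and Mlxipl higher (log2 0.57, 0.70, 0.28 and 0.58) and Acly lower (log2 -0.23). This contrast counts Tom+ and Tom- libraries of the same number as if they were independent. With their counts summed, so that 3 CCl4 samples were compared with 3 oil samples and 3.34% of all genes rose as DEGs, Pnpla3, Scd2, Scd1 and Elovl6 remained DEGs with adjusted p-values from 0.00197 to 0.0223, and Fasn fell under the fold threshold (log2 0.72 ± 0.13, adjusted p = 0.0163). Fasn also fell under it without Tom+ oil replicate 3 (log2 0.67), Tom- CCl4 replicate 3 (0.73) or Tom+ CCl4 replicate 3 (0.74), and Acacb rose above it without Tom+ oil replicate 2 (0.81) or Tom- CCl4 replicate 1 (0.75).

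**Figure D3:**
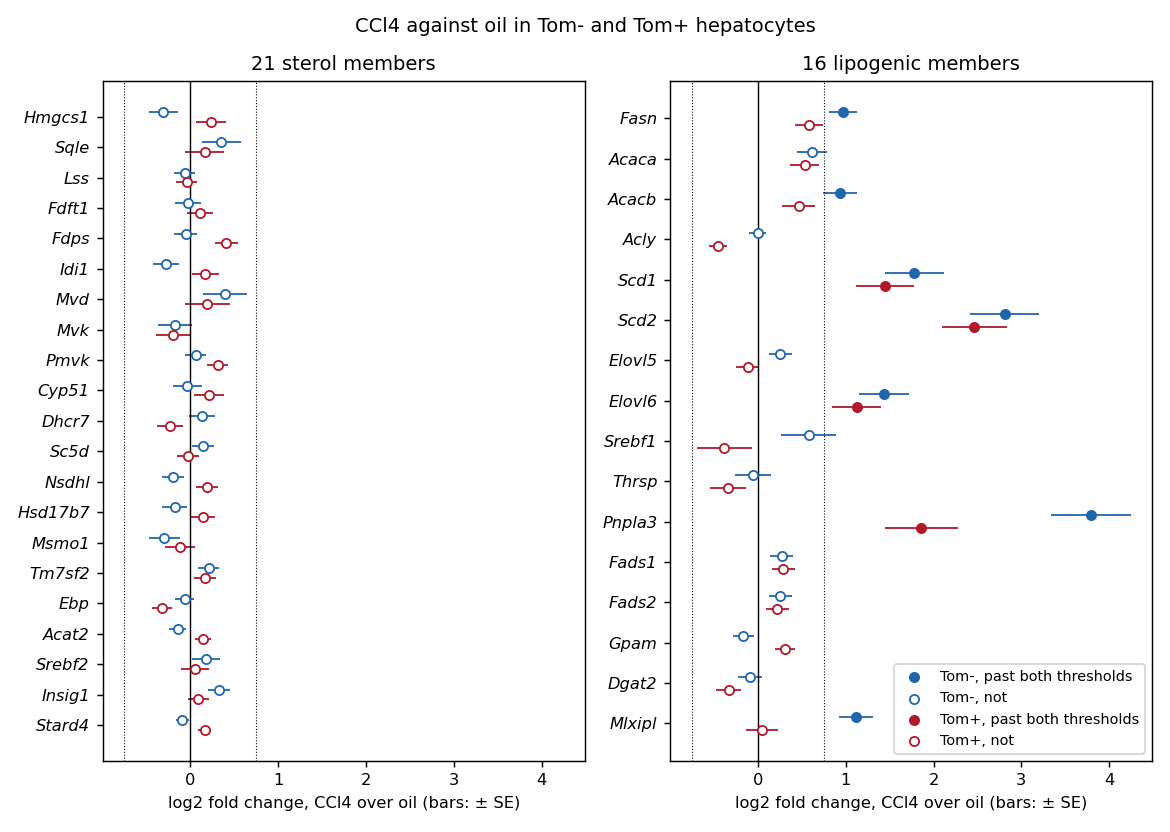
Log2 fold change of CCl4 over oil ± SE from edgeR for each of the 21 sterol members (left) and 16 lipogenic members (right) in Tom- (blue) and Tom+ (red) hepatocytes, with filled symbols for DEGs and dotted lines at the fold threshold of 0.75. The sterol members lie between -0.32 and 0.41 in both fractions, whereas 7 lipogenic members in Tom- and 4 in Tom+ lie past the right-hand line.

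The genes of cholesterol synthesis stayed close to their oil levels. Among the 21 sterol members the log2 fold changes ran from -0.31 (Hmgcs1) to 0.40 (Mvd) in Tom- and from -0.32 (Ebp) to 0.41 (Fdps) in Tom+, with standard errors between 0.08 and 0.26. At an unadjusted p-value under 0.05 there was 1 sterol member in Tom- and 3 in Tom+, against 31.5% and 24.4% of all genes tested, and the smallest adjusted p-values by edgeR were 0.0828 for Insig1 in Tom- and 0.0655 for Fdps in Tom+. In Tom- 8 members had values above 0 and 13 below, and in Tom+ 15 above and 6 below. A p-value that misses the threshold does not show that the levels were equal. Stard4, a carrier of sterols between membranes, had the smallest error, with log2 values of -0.09 ± 0.08 in Tom- and 0.16 ± 0.08 in Tom+.

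Within the sterol arm, Hmgcs1, the synthase in front of the rate-limiting step, measured 223, 292 and 379 CPM in Tom- oil and 258, 228 and 238 CPM in Tom- CCl4. The oil libraries alone thus spread wider than the difference between the groups. Ebp had 264, 252 and 259.9 CPM in Tom- oil, 234, 266 and 246 CPM in Tom+ oil, 243, 282 and 217 CPM in Tom- CCl4 and 177, 227 and 193 CPM in Tom+ CCl4. Its Tom+ CCl4 libraries were below all Tom+ oil libraries (log2 -0.32 ± 0.11, adjusted p = 0.0901). Insig1 had 252, 278 and 281 CPM in Tom- oil, 306, 371 and 256 CPM in Tom+ oil, 319, 372 and 328 CPM in Tom- CCl4 and 342, 346 and 306 CPM in Tom+ CCl4, so that its groups were apart in Tom- and overlapped in Tom+. Srebf2, the gene of SREBP2 itself, had 67.5, 82.2 and 108 CPM in Tom- oil, 85.6, 111 and 87.6 CPM in Tom+ oil, 108, 99.9 and 83.4 CPM in Tom- CCl4 and 107, 95.6 and 91.8 CPM in Tom+ CCl4. Its groups overlapped in both fractions (log2 0.18 ± 0.16 and 0.05 ± 0.16). The summed level of Tom- oil replicate 1, 1460 TPM, was the lowest of all libraries.

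By their place in the pathway, the members of the early, mevalonate part were Acat2, Hmgcs1, Mvk, Pmvk, Mvd, Idi1 and Fdps. Fdps, which makes farnesyl diphosphate, had 71.5 to 96.6 CPM in Tom+ oil and 99.6 to 114 CPM in Tom+ CCl4, the highest sterol value in that fraction but short of the test, and in Tom- its log2 value was -0.05. Mvk, which phosphorylates mevalonate, had -0.17 in Tom- and -0.20 in Tom+, Pmvk, the next kinase, 0.06 and 0.31, and Acat2, which joins acetyl-CoA units, -0.14 and 0.15. Of these 7, 5 had a negative value in Tom- and 1 in Tom+. The members that make and close squalene had log2 values of -0.02 and 0.11 for Fdft1 (squalene synthase), 0.35 and 0.17 for Sqle (squalene epoxidase) and -0.06 and -0.04 for Lss. Among the enzymes that trim lanosterol towards cholesterol, Cyp51, the lanosterol demethylase, had -0.03 in Tom- and 0.21 in Tom+, Msmo1, a methyl sterol oxidase, -0.30 and -0.12, Nsdhl -0.20 and 0.19, and Hsd17b7 -0.18 and 0.14. Tm7sf2, a sterol reductase, had 0.21 and 0.17, Sc5d, a sterol desaturase, 0.15 and -0.03, and Dhcr7, which makes cholesterol from its last precursor, 0.14 and -0.23. None of these passed the test in either fraction.

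**Figure D4:**
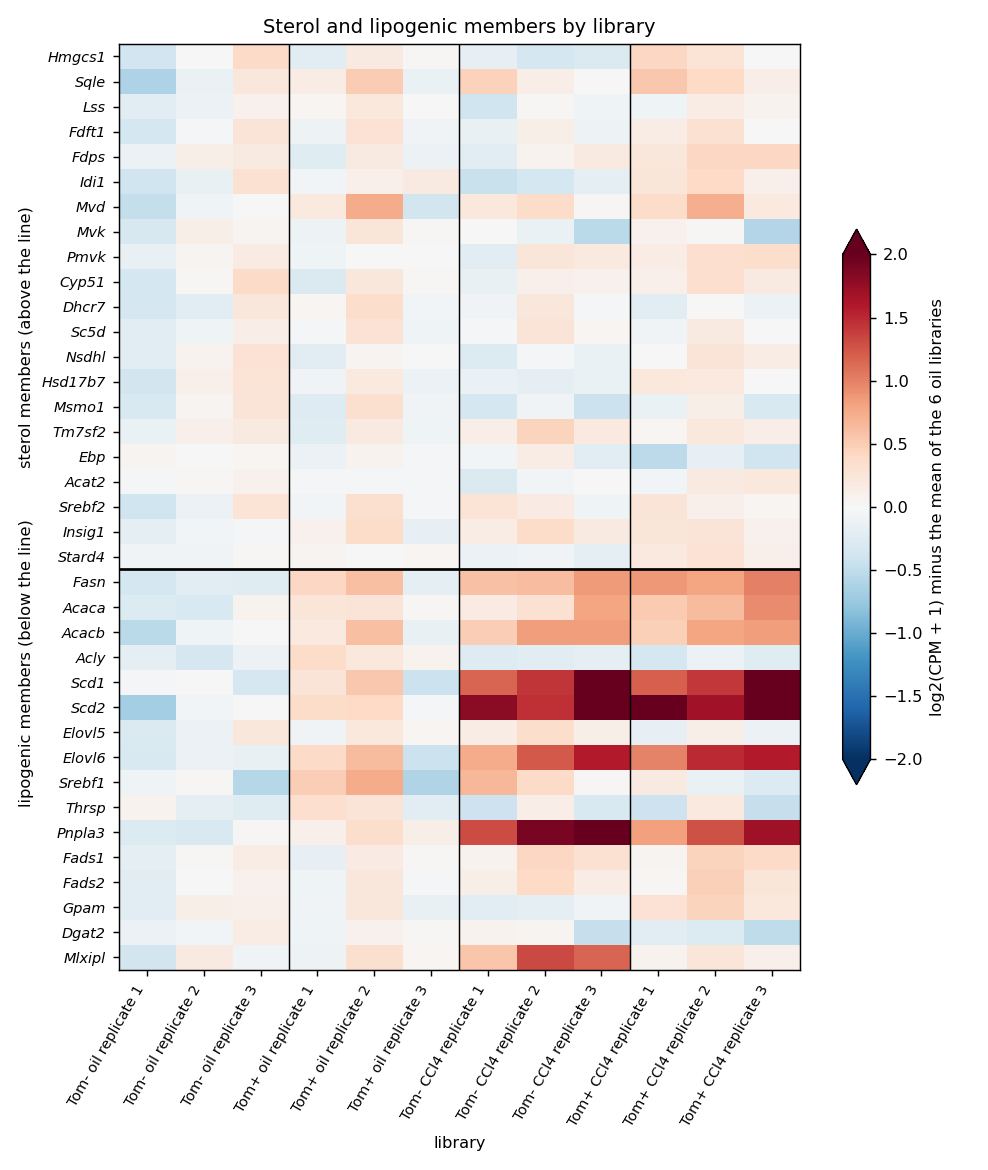
Heat map of log2(CPM + 1) minus the mean of the 6 oil libraries for each member (rows) in each of the 12 libraries (columns), with red for higher and blue for lower values and colours saturating at 2. The sterol rows are pale in all columns, the lipogenic rows Scd1, Scd2, Elovl6 and Pnpla3 are red in the 6 CCl4 columns, and Mlxipl is red in the Tom- CCl4 columns.

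To compare cells that the p16Ink4a reporter had labelled with unlabelled cells of the injured liver, Tom+ and Tom- hepatocytes of CCl4-treated mice were compared. Among the members 1 DEG was found, Mlxipl, which was lower in Tom+, and 1.74% of all genes tested were DEGs that were lower. The 264, 299 and 270.0 CPM of Tom+ stood below the 369, 629 and 566 CPM of Tom- in each of the 3 same-numbered pairs (log2 -0.91 ± 0.19, adjusted p = 0.0182). Same-numbered libraries deviated together, and a model with a block for each pair gave -0.87 ± 0.10 (adjusted p = 0.000117). Without the block the call was lost on leaving out Tom- CCl4 replicate 2 (log2 -0.75, adjusted p = 0.0964) or Tom+ CCl4 replicate 1, 2 or 3 (adjusted p = 0.0659, 0.0619 and 0.0534). Pnpla3 was lower in Tom+ in 3 of 3 pairs too, and became a DEG only with the block (log2 -0.83 ± 0.23, adjusted p = 0.0257, against -0.88 ± 0.39 and 0.194 without it), where 3.25% of all genes were DEGs that were lower. Srebf1 was lower in 3 of 3 pairs as well (log2 -0.45 ± 0.31, adjusted p = 0.441; with the block -0.44 ± 0.12 and 0.0316).

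The sterol members leaned towards Tom+ by small amounts. The median log2 ratio of Tom+ over Tom- was 0.20 for the 21 sterol members and -0.02 for the 16 lipogenic members, and 14 sterol members were higher in Tom+ in 3 of 3 pairs while 4 were lower, against 28.2% and 26.5% of all genes tested. By the adjusted p-value alone, which 1.96% of all genes passed as higher, Idi1 (isopentenyl diphosphate isomerase, log2 0.58 ± 0.15, adjusted p = 0.0411), Stard4 (0.32 ± 0.08, adjusted p = 0.0281) and the lipogenic member Gpam (0.48 ± 0.12, adjusted p = 0.0315) were higher in Tom+. Idi1 measured 113, 121 and 135 CPM in Tom- and 182, 204 and 165 CPM in Tom+, and Stard4 91.3, 93.8 and 86.2 CPM in Tom- and 113, 121 and 106 CPM in Tom+, groups that did not overlap, as for 7 of the 21 sterol members and 14.1% of all genes tested. With the block 6 sterol members passed this threshold as higher, Hmgcs1 (log2 0.49), Fdps (0.35), Idi1 (0.58), Nsdhl (0.28), Acat2 (0.23) and Stard4 (0.32), with adjusted p-values from 0.00218 to 0.0219, and Ebp passed as lower (log2 -0.32, adjusted p = 0.0108). With the block 7.94% of all genes passed as higher and 9.72% as lower. None of these sterol members reached the fold threshold, 8 of the 21 had an unadjusted p-value under 0.05 without the block, as had 22.8% of all genes, and DESeq2 called 0 of them.

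**Figure D5:**
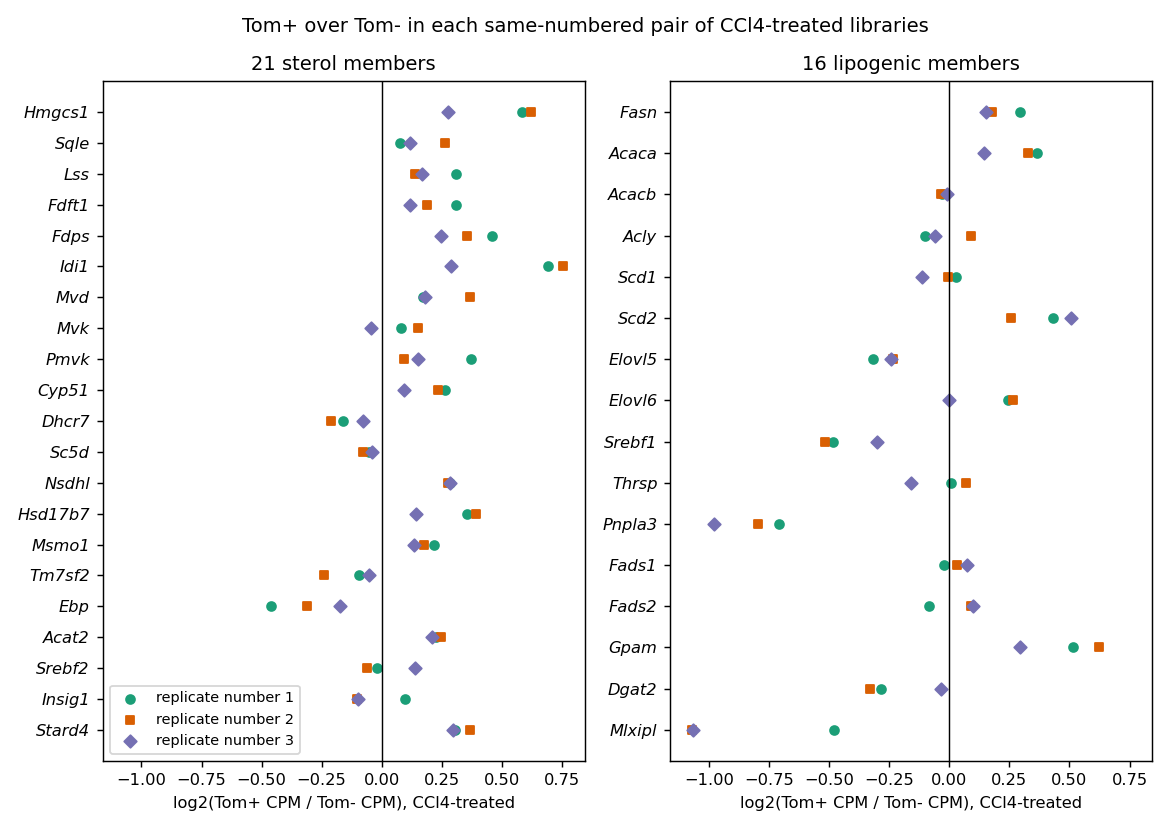
Log2 ratio of Tom+ over Tom- CPM in each of the 3 same-numbered pairs of CCl4-treated libraries (circle, square and diamond for numbers 1, 2 and 3) for the 21 sterol members (left) and 16 lipogenic members (right). For 14 sterol members all 3 points lie right of 0 and for 4 left of it. For 4 lipogenic members all 3 lie right of 0, and for 6, Mlxipl, Pnpla3 and Srebf1 among them, left of it.

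In oil-treated mice 0 members and 0 of all genes tested (0%) were DEGs between Tom+ and Tom- by edgeR. Of all genes, DESeq2 called 17 (0.0993%) and edgeR with the replicate block 40 (0.234%). At an unadjusted p-value under 0.05 there were 4 members, Fasn (log2 0.59), Acacb (0.44), Acly (0.43) and Pnpla3 (1.05), among 1198 genes (7% of all tested), and DESeq2 called 0 members. All 16 lipogenic log2 ratios were above 0, with a median of 0.32, against 0.07 for the sterol members. Without the 2 libraries that the reporter contradicts, 1 in each of pairs 1 and 2, the medians were 0.13 and -0.14. In the pair of replicate 3, where both reporter levels follow the labels, the median log2 ratio of the lipogenic members was -0.10 and that of the sterol members -0.28, while pairs 1 and 2 had lipogenic medians of 0.40 and 0.54. Leaving out Tom+ oil replicate 3 turned 1 member, Fasn, into a DEG (log2 0.78, adjusted p = 0.0221). Angptl4, an inhibitor of lipoprotein lipase that rises on fasting, was at 43.3 and 59.4 CPM in Tom+ oil replicates 1 and 2 against 103 to 241 CPM in the other 10 libraries, and its part in the lipogenic levels of these libraries was not tested.

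Whether the response to CCl4 differed between the fractions was tested as the interaction of fraction and treatment. Without the block 0 members were DEGs by edgeR, among 1.17% of all genes, and 9 of the 37 members had an unadjusted p-value under 0.05, as had 18.6% of all genes. A negative value means a smaller log2 fold change in Tom+, and 14 of the 16 lipogenic values were negative, with a median of -0.34, against 0.14 for the sterol members. DESeq2, by which 2.76% of all genes were lower DEGs, called Mlxipl (log2 -1.07, adjusted p = 0.00286) and Pnpla3 (log2 -1.93, adjusted p = 0.03). With the replicate block 3 members were lower DEGs, Mlxipl (log2 -1.04 ± 0.14, adjusted p = 0.000565), Pnpla3 (-1.93 ± 0.39, adjusted p = 0.00706) and Srebf1 (-0.86 ± 0.17, adjusted p = 0.00983), where 4.19% of all genes were. With the block and without the 2 doubted oil libraries, which leaves 1 oil pair, these values were -0.98, -1.09 and -0.40. That of Hmgcs1 was 0.86. No call is drawn from 1 oil pair. Without the block, leaving out Tom+ oil replicate 3 made Srebf1 a DEG (log2 -1.26, adjusted p = 0.0416) and leaving out Tom- CCl4 replicate 1 made Mlxipl one (log2 -1.27, adjusted p = 0.0226).

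The genes around both arms were described from lists chosen by function. Among all genes tested, 7.92% in Tom- and 5.24% in Tom+ were DEGs in either direction, so that 1 DEG in a list of 14 or 12 is near the share of all genes. Of 14 genes of SREBP processing and sterol sensing, edgeR called 1 in each fraction, and DESeq2 called 1 in Tom- and 2 in Tom+. The edgeR DEG was Rnf145, an LXR-induced ubiquitin ligase of the sterol sensor (log2 1.03 ± 0.17 in Tom- and 1.10 ± 0.17 in Tom+, adjusted p = 0.00232 and 0.00186). It measured 9.10 to 11.4 CPM in Tom- oil, 9.84 to 14.1 CPM in Tom+ oil, 18.7 to 26.1 CPM in Tom- CCl4 and 22.4 to 31.9 CPM in Tom+ CCl4, without overlap. Of 12 genes of cholesterol uptake, storage and export, 1 was a DEG in Tom-, Abcg1, a sterol exporter strongly expressed in macrophages (log2 1.45 ± 0.27, adjusted p = 0.00399), and 0 in Tom+ by edgeR and DESeq2, where 5 had an unadjusted p-value under 0.05. Of 18 genes that supply carbon and NADPH or make other lipids, 3 rose and 1 fell in Tom-. Pklr, the liver pyruvate kinase and a classical ChREBP target (log2 0.90 ± 0.13 in Tom- and 1.04 ± 0.13 in Tom+), and G6pdx, the entry to the pentose phosphate pathway (1.34 ± 0.36 and 1.55 ± 0.36), rose in both fractions, and Elovl1, an elongase of long fatty acids, rose in Tom- (0.94 ± 0.14). Elovl3, an elongase of very long fatty acids, fell from 3.53 to 8.23 CPM in Tom- oil and 0.607 to 2.30 CPM in Tom+ oil to at most 0.125 CPM in all CCl4 libraries, which is 8 counts or fewer, so that no fold is given (adjusted p = 5.94e-05 in Tom- and 0.00124 in Tom+).

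Other cell types and liver zones moved with the same contrasts. Of 9 fasting and feeding genes and of 12 clock genes, 0 were DEGs between CCl4 and oil within either fraction by edgeR or DESeq2, with 3 and 3 at an unadjusted p-value under 0.05 in Tom- and 5 and 1 in Tom+. The 8 stellate cell and fibroblast markers summed to 2.20 to 5.05 TPM in Tom- oil, 2.75 to 6.56 in Tom+ oil, 18.2 to 22.6 in Tom- CCl4 and 13.9 to 28.4 in Tom+ CCl4, and 7 of 8 were higher DEGs in Tom- and 6 of 8 in Tom+. All 8 endothelial markers rose in Tom- CCl4 (133 to 155 against 55.1 to 88.1 TPM) and none in Tom+ by edgeR or DESeq2, nor at an unadjusted p-value under 0.05 (86.1 to 107 against 59.5 to 101), and 5 of 8 were lower DEGs in Tom+ than in Tom- in CCl4. The 8 Kupffer cell and macrophage markers summed to 15.6 to 93.4 TPM in Tom- oil, 26.2 to 129 in Tom+ oil, 105 to 124 in Tom- CCl4 and 64.3 to 163 in Tom+ CCl4, and none was a DEG by edgeR or DESeq2, with 0 at an unadjusted p-value under 0.05 in either fraction. Of the adipocyte markers, Lep was at 0 in all libraries and Adipoq, Plin1 and Cidea at 0.13 CPM or less, and of the bile duct markers Krt19, Krt7 and Epcam were at 0.29 CPM or less. Adrb3, the remaining adipocyte marker and the one of that list that passed the filter, had 1.10 to 3.94 CPM, and in CCl4 it was lower in all Tom+ than in all Tom- libraries (log2 -1.03 ± 0.33, adjusted p = 0.0811 by edgeR and 0.0306 by DESeq2, which called it). Of 2 tested bile duct markers 1 was a higher DEG in Tom+ and of 2 tested markers of other leukocytes none was a DEG. The hepatocyte markers summed to between 91982 and 132347 TPM, and 0 of 7 were DEGs in any contrast by edgeR or DESeq2, with 0 to 3 at an unadjusted p-value under 0.05. In Tom+ hepatocytes 6 of 10 zone 3 markers rose and 8 of 10 zone 1 markers fell with CCl4. In CCl4 the zone 3 markers summed to 4461 to 5843 TPM in Tom+ and 1740 to 2725 TPM in Tom-. Of these 10 markers 2 had an unadjusted p-value under 0.05 by edgeR between the fractions, as had 22.8% of all genes. In CCl4 6 of 10 zone 1 markers were lower in Tom+ than in Tom-, the contrast in which Mlxipl was lower. In that contrast Per2, a clock gene, was lower too (log2 -0.76, adjusted p = 0.0423). The part of these cell types and zones in the changes of the members was not tested, and in bulk samples fewer cells of a type cannot be told apart from less RNA per cell.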

How the data were processed

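RNA-seq of 12 libraries was taken from the count table of the whole series, and each library was grouped by the treatment, fraction and replicate number in its label. Per the labels and the study's methods, read quality was handled by the authors with fastp (v0.23.2) and alignment to the mm10 genome with HISAT2 (v2.1.0). The counting program, its strand setting and the annotation release are not given in the sources used here. The deposited values are expected counts per feature, not normalized, of which 30.4% to 32.9% of the non-zero values are not whole, and they were rounded before any test although whole counts had been assumed. Symbols were matched for 54723 of 54839 features. The members and gene lists were chosen with earlier results of these data known.

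Tests used edgeR (v4.0.16) under R (v4.3.3). After filterByExpr, which left 17121 genes, and TMM normalization, all 12 libraries entered one robust quasi-likelihood model with 4 group coefficients, and p-values were adjusted by Benjamini-Hochberg over all genes tested. Adjusted p-values in the text come from this test unless DESeq2 (v1.42.0), summed counts or the replicate block is named. The fit was tested on simulated data. TPM was computed from the rounded counts and the deposited lengths. Total counts had a median of 47910752.5, and 3 counts corresponded to 0.0369 to 0.0829 CPM. Values per library are given for members that were DEGs, the 2 highest members of each arm and the regulators Srebf1, Srebf2, Mlxipl and Insig1. Values of other members per library, and the genes behind small counts, were chosen after they were seen. From the other lists up to 3 DEGs with the smallest adjusted p-values were named, and 1 gene of these lists is not reported here.

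The pairing of Tom+ and Tom- libraries comes from the replicate numbers in the labels. Deviations of same-numbered Tom+ and Tom- libraries from their group means correlated at 0.504 to 0.707 in CCl4 and 0.348 to 0.549 in oil, over 8560 genes, so the numbers were taken to pair them. Alternatives were DESeq2, RLE normalization, a minimum of 10 counts per library or no minimum, the adjusted p-value alone, the replicate block, leaving out the 2 oil libraries or each library in turn, and summed counts. The block without the 2 oil libraries was added after seeing the data. Figures were drawn with matplotlib (v3.10.9).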

Additional observations from a re-analysis of the deposited data

Results flagged for a closer look

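Under the replicate block the response to CCl4 differed between the fractions, by the test of the interaction itself, for 3 members. The log2 difference of the response in Tom+ from that in Tom- was -1.04 for Mlxipl (adjusted p = 0.000565), -1.93 for Pnpla3 (adjusted p = 0.00706) and -0.86 for Srebf1 (adjusted p = 0.00983), by edgeR's quasi-likelihood test. Without the block Mlxipl had -1.07 ± 0.27 (adjusted p = 0.0636), Pnpla3 -1.93 ± 0.60 (adjusted p = 0.115) and Srebf1 -0.96 ± 0.44 (adjusted p = 0.279). Without the 2 doubted oil libraries and without the block the values were -0.81 (adjusted p = 0.197), -1.59 (0.364) and -0.73 (0.575). Groups of 3 libraries are too small for a test of single outlying libraries.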

How the results depend on the processing

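Under 21 alternatives 870 of 933 recomputed values of 46 results kept their direction and side of the threshold or stayed within their margin. The 570 values of single members belong to 28 results chosen because their adjusted p-value was under 0.05 in the main test. None of the 570 changed sign. Because of that choice, this says little about how stable the members are. The 7 DEGs of the Tom- contrast became 8 with the adjusted p-value alone and stayed 7 in every fit that left out 1 library. The 4 DEGs of the Tom+ contrast were 2 without the filter on low counts and 1 to 5 when 1 library was left out, with 1 without Tom+ oil replicate 1 or Tom+ CCl4 replicate 3. The 5 of the averaged contrast were 10 with the adjusted p-value alone and 4 to 6 on leaving out 1 library. The 1 DEG between Tom+ and Tom- in CCl4 became 4 with the adjusted p-value alone, 2 with the replicate block, 2 with the block without the 2 oil libraries, and 0 to 1 on leaving out 1 library. In oil the 0 became 0 to 1. The 0 of the interaction became 2 with DESeq2, 3 with the replicate block, and 0 to 1 on leaving out 1 library. With the block and without the 2 oil libraries the counts were 5 in Tom- and 3 in Tom+, and neither Scd1 nor Elovl6 was among them. The cause was not tested. The block changed no other count of members by over 1.5 times. Across treatments same-numbered libraries correlated at only 0.011 to 0.111 in Tom- and 0.009 to 0.304 in Tom+. For CCl4 against oil the block was nevertheless the replicate number, shared by oil and CCl4 libraries. For Tom+ against Tom- and the interaction it was each same-numbered pair within a treatment. Of 242 recomputed medians of an arm 9 moved by more than the spread between replicates, all in oil or in the interaction. The low counts of Pnpla3 and Scd2 in oil limit the precision of their folds.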
